A study of Homo sapiens with 36 samples.

Results

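Glutathione and thioredoxin are the main thiol buffers of the cell, and the 9 genes described here import the building block of glutathione, make it, recycle it, spend it, or belong to the NRF2 programme around it. They are SLC7A11, GCLC, GCLM, GSR, GPX4, TXNRD1, SRXN1, NQO1 and NFE2L2. They were taken by name as glutathione and NRF2 antioxidant genes, not by any measured value in a rule, and all 9 were found among the 15891 genes of the deposited expression table. The series followed HCT116 cells, a human colorectal carcinoma line, through 10 µM 5-fluorouracil (5-FU), an antimetabolite that blocks thymidylate synthesis and enters RNA. The drug was present for 48 h, and cells were collected before it was added (D0), on D1 and D2, and afterwards on D7, D14 and D16. Each collection gave RNA of the whole cytoplasm and RNA of a heavy pool, made of the gradient fractions whose mRNAs carried more than 3 ribosomes. There were 3 libraries in each of the 12 groups, lettered A, B and C and called batches in the labels, which gave 36 libraries in all. Every group came from this single line, all cells received emetine shortly before harvest, D0 was the only untreated group, and later days had no untreated cells of the same age in culture. Nothing says that the letters were separate cultures, so p-values measure the spread between these libraries, which may be technical. The letters A, B and C give the order of every triplet of values below, and every value is a normalised count, the deposited read count divided by a size factor of its library.

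NRF2, the transcription factor encoded by NFE2L2, is normally bound by KEAP1 and sent for degradation. When oxidants or electrophiles modify KEAP1, NRF2 accumulates, pairs with small MAF proteins and binds antioxidant response elements near genes of glutathione and thioredoxin metabolism. Because this control acts mainly on the protein, the mRNA of NFE2L2 is a poor gauge of NRF2 activity, and its targets are usually read in its place. GPX4 spends glutathione to keep lipid peroxides low, and loss of that defence leads to ferroptosis, an iron-dependent form of cell death.

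The core of the antioxidant response element, TGACNNNGC, was searched on both strands of windows around each annotated start. These ran from 250 bases before to 50 bases after it, and the matches are shown because NRF2 binds such elements. RefSeq (GRCh38.p14) windows were matched for 7 of the 9 genes (GCLC, GCLM, GPX4, TXNRD1, NQO1, SRXN1 and NFE2L2), and 2 of these, GCLM and TXNRD1, held the core. It occurred in 4687 of all 35116 windows, or 13.3%, a share of windows and not of genes. GPX4 had 3 windows, TXNRD1 and NFE2L2 had 2 each, and the other genes matched had 1 each. The stretches of 30 bases below run 5′ to 3′ in the direction of the gene, and capitals mark the core, which reads GCNNNGTCA where it lies on the opposite strand. The GCLM stretch lies on the minus strand of chromosome 1, and the first base of its core is 34 bases before the start. That start is the RefSeq one, which differs from the gene boundary given further below. TXNRD1, on the plus strand of chromosome 12, has 3 stretches, with the core beginning 99 and 8 bases before the first start and 102 bases before the second. The core that begins 8 bases before the first start reaches the start base itself. The words are matches of letters only, and no binding was measured. Sequence outside these windows was not searched, so a gene without a match here may hold the core elsewhere.
GCLM chr1:93909445-93909474: tacgatttctGCTTAGTCAttgtcttccag
TXNRD1 chr12:104215670-104215699: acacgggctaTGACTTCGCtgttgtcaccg
TXNRD1 chr12:104215761-104215790: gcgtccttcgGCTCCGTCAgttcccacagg
TXNRD1 chr12:104286920-104286949: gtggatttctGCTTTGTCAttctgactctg

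The libraries held 41.0 to 103.6 megareads in the cytoplasm, the highest being D2 letter C, and 46.1 to 55.7 in the heavy pool, as estimated from the spacing of the deposited values. Of the 12 epithelial markers 10 were listed, CDX1 and VIL1 were not, and 3 of 17 markers of other cell types were listed (COL1A1, DES and HBA1), while PTPRC, PECAM1 and CDH5 were among those not listed. Summed epithelial values in the cytoplasm ranged from 276435 to 296632 at D0 and from 641838 to 734430 at D1, with 5 of 10 markers called higher, beside 10.9% of all genes. The 3 other markers summed to 561 to 654 at D0 and 2013 to 2169 at D1, where all 3 were called higher, beside the same 10.9%. In the heavy pool at D7 they summed to 478 to 526, and 2 were lower, beside 36.5% of all genes. The part of either list in the results below was not tested. Cytoplasmic libraries were the less even. The spread of a library's genes around its group mean, on the log2 scale, was 0.66 in D7 letter A, 0.50 in D14 letter B, 0.49 in D16 letter B and 0.48 in D2 letter A, against 0.16 to 0.25 in all heavy pool libraries. The deviations of cytoplasmic D14 letter B and D16 letter B followed gene GC content (r across genes 0.738 and 0.690). Among the 9 genes GC content was lowest in SLC7A11 (35.4%) and GCLM (37.3%) and highest in GPX4 (62.5%), with a median over all genes of 48.8%.

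Measured per kilobase of exon, GPX4 was the most abundant of the 9 mRNAs in the cytoplasm before the drug, at 15470 ± 1486 normalised counts per kb (SD, n = 3), followed by NQO1 at 9038 ± 333. GSR stood at 4016 ± 370, TXNRD1 at 2322 ± 338 and NFE2L2 at 648 ± 65.1. GCLM at 350 ± 33.2 and GCLC at 315 ± 24.8 had overlapping spreads, as did SRXN1 at 130 ± 31.5 and SLC7A11 at 118 ± 32.6. The heavy pool put NQO1 first at 15620 ± 972 per kb. TXNRD1 at 4297 ± 221, GPX4 at 4192 ± 303 and GSR at 4028 ± 127 followed with overlapping spreads. Log2 differences, here and in all that follows, are given ± the standard error of limma's fit, which is not an SD. In the direct comparison of the fractions at D0 on the log2 scale, TXNRD1 (0.90 ± 0.16, adjusted p = 6.33e-05), NQO1 (0.79 ± 0.13, adjusted p = 1.37e-05) and GCLM (0.75 ± 0.20, adjusted p = 0.00279) were higher in the heavy pool. GPX4 was lower there by a wide margin (-1.88 ± 0.20, adjusted p = 2.49e-08). In all, 3 of the 9 genes were higher and 1 lower, beside 26.7% of all genes higher and 19.1% lower, 45.8% together. The GCLM difference missed the threshold without letter A (adjusted p = 0.0574).

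Against D0, calls among these genes were mostly toward lower levels. A gene was called when its adjusted p in limma, corrected over all genes tested, was under 0.05, and differences are on the log2(value + 1) scale. In the cytoplasm 3 of the 9 were lower at D1 and none higher, where 7.09% of all genes were lower and 17.9% were called in either direction. At D2 4 were lower, beside 10.6% of all genes lower and 24.8% in either direction. At D7 7 were lower and 1 higher, beside 15.7% lower and 18.3% higher, 34% together. At D14 4 were lower (5.05% of all genes, 12.8% in either direction), and at D16 4 were lower (7.26%, 16.7% in either direction), with none higher on either day. In the heavy pool 6 were lower at D1 (26.9% of all genes, 47% in either direction), 7 at D2 (34.5% and 64.9%) and 6 at D7 (36.5% and 63.5%), with none higher. At D14 6 were lower and 1, GPX4, was higher, beside 37.6% of all genes lower and 34.4% higher, 72% together. D16 gave the same numbers of the 9 genes, beside 36.6% lower and 36.2% higher, 72.8% together. The median difference of the 9 genes was -0.49 in the heavy pool at D2, against -0.03 over all genes, and -0.97 at D14, against -0.02. All these comparisons share the D0 libraries, and in such bulk RNA fewer cells of a type and less RNA per cell cannot be told apart. NFE2L2 was called in no comparison with all libraries fitted and the size factors as deposited. With each library scaled to its total reads, it was called higher in the heavy pool at D1 and D2. Under the same scaling GCLC, GSR and GPX4 lost their heavy pool calls on those days, and GCLC, GSR and TXNRD1 lost theirs at D7.

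Steps between the later days, which do not use D0, were tested in the same fits. In the cytoplasm none of the 9 genes was called from D2 to D7 (all genes 21.3%). From D7 to D14 SLC7A11 and SRXN1 were higher and GSR and GPX4 lower, beside 16.5% of all genes higher and 19.1% lower, 35.6% together. From D14 to D16 limma called 0% of all genes, and 230 genes, none of them among the 9, had an unadjusted p under 0.05. In the heavy pool NQO1 and TXNRD1 were higher and GCLM lower from D2 to D7, beside 28.7% higher and 28.3% lower, 57.1% together. From D7 to D14 SLC7A11 and GPX4 were higher, and GCLC, GCLM, GSR and TXNRD1 were lower, beside 29.5% higher and 28.9% lower, 58.4% together. From D14 to D16 SLC7A11 alone was called, as higher (8.68% of all genes, 18.9% in either direction). The cytoplasmic GSR step (-0.44 ± 0.16, adjusted p = 0.037) came to 0.031 when each library was scaled to its total reads (total scaling), a change of sign, and that of GPX4 (-0.82 ± 0.24, adjusted p = 0.0165) was missed there (adjusted p = 0.0627). Under the same scaling NQO1 went from 0.03 ± 0.17 to 0.50 (adjusted p = 0.0161) and TXNRD1 from 0.40 ± 0.21 to 0.87 (adjusted p = 0.043), both gaining a call in that step. With letter C left out of every group none of the 9 genes was called in it, SLC7A11 coming nearest (1.38, adjusted p = 0.0604). Without cytoplasmic D7 letter A neither GSR nor GPX4 was called in it (adjusted p = 0.0805 and 0.0867). The small heavy pool rise of TXNRD1 (0.24 ± 0.10, adjusted p = 0.0352) was also missed under total scaling (adjusted p = 0.174) and without letter B or C (adjusted p = 0.117 and 0.259). The heavy pool rise of NQO1 (0.30 ± 0.09, adjusted p = 0.00627) was missed without letter B (adjusted p = 0.0776). GPX4 in that step (0.25 ± 0.12, adjusted p = 0.076) passed under TMM scaling (adjusted p = 0.0265) and without letter C (adjusted p = 0.0191), and so did its heavy pool step from D14 to D16 without letter C (-0.39, adjusted p = 0.0429).

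**Figure D1:**
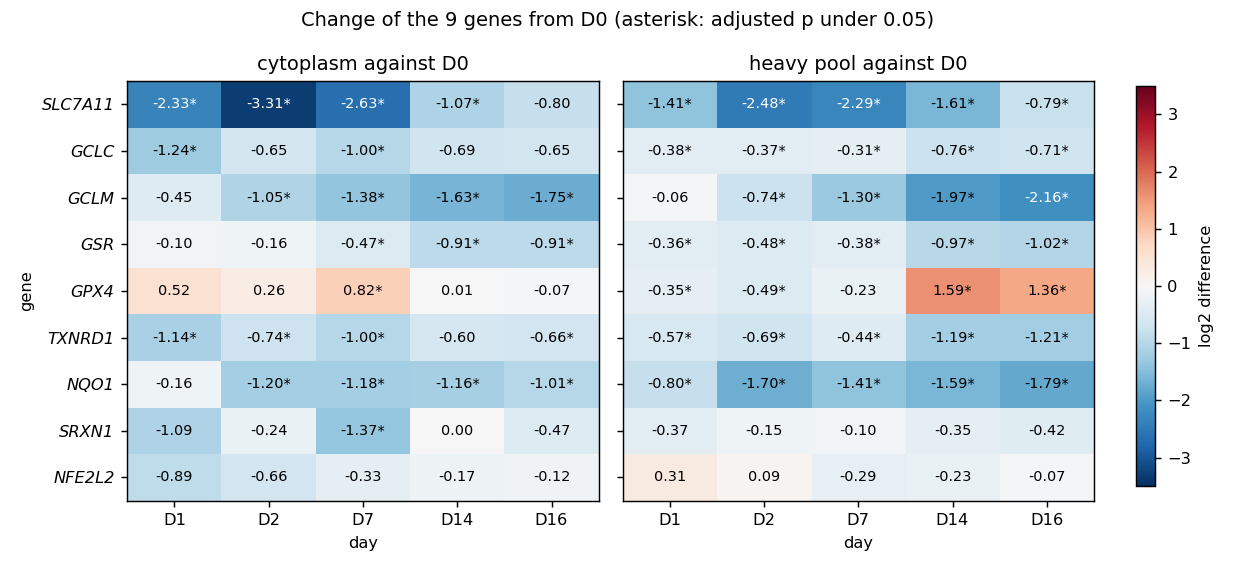
Log2 difference from D0 of each of the 9 genes (rows) on each later day (columns), in the cytoplasm (left) and the heavy pool (right), with an asterisk where limma's adjusted p was under 0.05. SLC7A11 reached -3.31 in the cytoplasm at D2, GCLM -2.16 in the heavy pool at D16, and GPX4 was the gene called higher in the heavy pool at D14 (1.59) and D16 (1.36).

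SLC7A11 (GRCh38 chromosome 4, 138164097 to 138242349, minus strand) encodes the transport subunit of the cystine-glutamate exchanger, which brings in the cystine that becomes glutathione's cysteine. It fell furthest of the 9 genes by D2 and then partly recovered. Cytoplasmic values were 799, 1193 and 1420 at D0, 257, 166 and 249 at D1 and 90.5, 94.7 and 157 at D2. They were 211, 167 and 160 at D7, 686, 348 and 614 at D14 and 713, 464 and 778 at D16. Every library after D0 was below every D0 library. Heavy pool libraries of SLC7A11 had 1232, 1308 and 1398 at D0, 580, 414 and 500 at D1 and 247, 264 and 198 at D2, then 314, 240 and 256 at D7, 518, 407 and 377 at D14 and 845, 758 and 683 at D16. There too, no later library reached the D0 values. The difference from D0 was -2.33 ± 0.32, adjusted p = 9.18e-05 in the cytoplasm at D1 and -3.31 ± 0.32, adjusted p = 8.09e-07 at D2. In the heavy pool it was -1.41 ± 0.15, adjusted p = 8.95e-08 at D1 and -2.48 ± 0.15, adjusted p = 1.96e-12 at D2. From D7 to D14 SLC7A11 rose by 1.56 ± 0.32, adjusted p = 0.00248 in the cytoplasm and by 0.68 ± 0.15, adjusted p = 0.000486 in the heavy pool. Its heavy pool level rose again from D14 to D16 (0.82 ± 0.15, adjusted p = 0.000993). At D16 it was -0.79 ± 0.15, adjusted p = 6.14e-05 in the heavy pool, and under total scaling that call was missed (adjusted p = 0.0539). The cytoplasmic call at D14 (-1.07 ± 0.32, adjusted p = 0.0365) was lost without letter B of that group, the lowest of the 3 (-0.77, adjusted p = 0.149), under total scaling (adjusted p = 0.146) and without letter C throughout (adjusted p = 0.282). The cytoplasmic D16 value (-0.80 ± 0.32, adjusted p = 0.0998) passed with the letter as a block, a term that removes differences between letters (adjusted p = 0.0456).

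GCLC and GCLM are the catalytic and the modifier subunit of glutamate-cysteine ligase, the rate-limiting enzyme of glutathione synthesis, and are described in turn. GCLM (chromosome 1, 93885205 to 93909456, minus strand) was lower by D2 in both fractions, and in the heavy pool lower again by D7 and by D14. Its cytoplasmic values were 1696, 2042 and 1956 at D0, 881, 782 and 1103 at D2, 728, 768 and 687 at D7, 738, 412 and 748 at D14 and 650, 365 and 749 at D16. Cytoplasmic libraries of D7, D14 and D16 overlapped, and the cytoplasmic steps from D2 to D7 (-0.33 ± 0.27, adjusted p = 0.38) and from D7 to D14 (-0.25 ± 0.27, adjusted p = 0.473) were not called. The heavy pool libraries of GCLM had 2960, 3162 and 3458 at D0, 2806, 2990 and 3384 at D1 and 1938, 1886 and 1900 at D2. Later they had 1271, 1223 and 1394 at D7, 858, 764 and 812 at D14 and 665, 712 and 769 at D16. From D2 on the heavy pool values of successive days did not overlap until D14 and D16. The heavy pool difference of GCLM was -0.06 ± 0.10, adjusted p = 0.616 at D1, -0.74 ± 0.10, adjusted p = 4.51e-07 at D2 and -1.30 ± 0.10, adjusted p = 1.27e-10 at D7. It was -1.97 ± 0.10, adjusted p = 1.31e-13 at D14 and -2.16 ± 0.10, adjusted p = 1.73e-14 at D16. In the cytoplasm GCLM was -1.05 ± 0.27, adjusted p = 0.0071 at D2 and -1.75 ± 0.27, adjusted p = 0.000261 at D16. The D2 cytoplasmic call was missed without letter A (adjusted p = 0.067) or C (adjusted p = 0.0579). The step from D2 to D7 was called in the heavy pool (-0.56 ± 0.10, adjusted p = 3.1e-05), as was that from D7 to D14 (-0.67 ± 0.10, adjusted p = 2.95e-06).

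GCLC (chromosome 6, 53497341 to 53616970, minus strand) was lowest in the cytoplasm at D1, and the difference between the fractions in that change was not called (0.86 ± 0.29, adjusted p = 0.0738). Cytoplasmic values of GCLC were 2480, 2868 and 2833 at D0, 1211, 925 and 1366 at D1 and 1315, 1799 and 2227 at D2. On D7 they were 926, 1791 and 1508, where letter A, a library with an uneven profile, was the lowest. The heavy pool libraries moved from 3613, 3259 and 3574 at D0 through 3084, 2460 and 2577 at D2 to 2215, 1827 and 2158 at D14. All heavy pool libraries from D1 on were below all of D0. GCLC was -1.24 ± 0.27, adjusted p = 0.0042 in the cytoplasm at D1 and -0.76 ± 0.10, adjusted p = 4.33e-07 in the heavy pool at D14. The D1 cytoplasmic call was missed without letter B (adjusted p = 0.0578) or C (adjusted p = 0.0758). Without D7 letter A the cytoplasmic D7 value moved from -1.0 ± 0.27, adjusted p = 0.00915 to -0.73, adjusted p = 0.0591. Without D2 letter C the uncalled cytoplasmic D2 value (-0.65 ± 0.27, adjusted p = 0.088) passed (-0.82, adjusted p = 0.0471). Heavy pool differences at D1 (-0.38 ± 0.10), D2 (-0.37 ± 0.10) and D7 (-0.31 ± 0.10) were called but small, and under total scaling none of them passed (-0.19, 0.012 and -0.02, so that of D2 changed sign). The heavy pool call of D7 was also missed without letter A (adjusted p = 0.0715) or C (adjusted p = 0.0555).

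**Figure D2:**
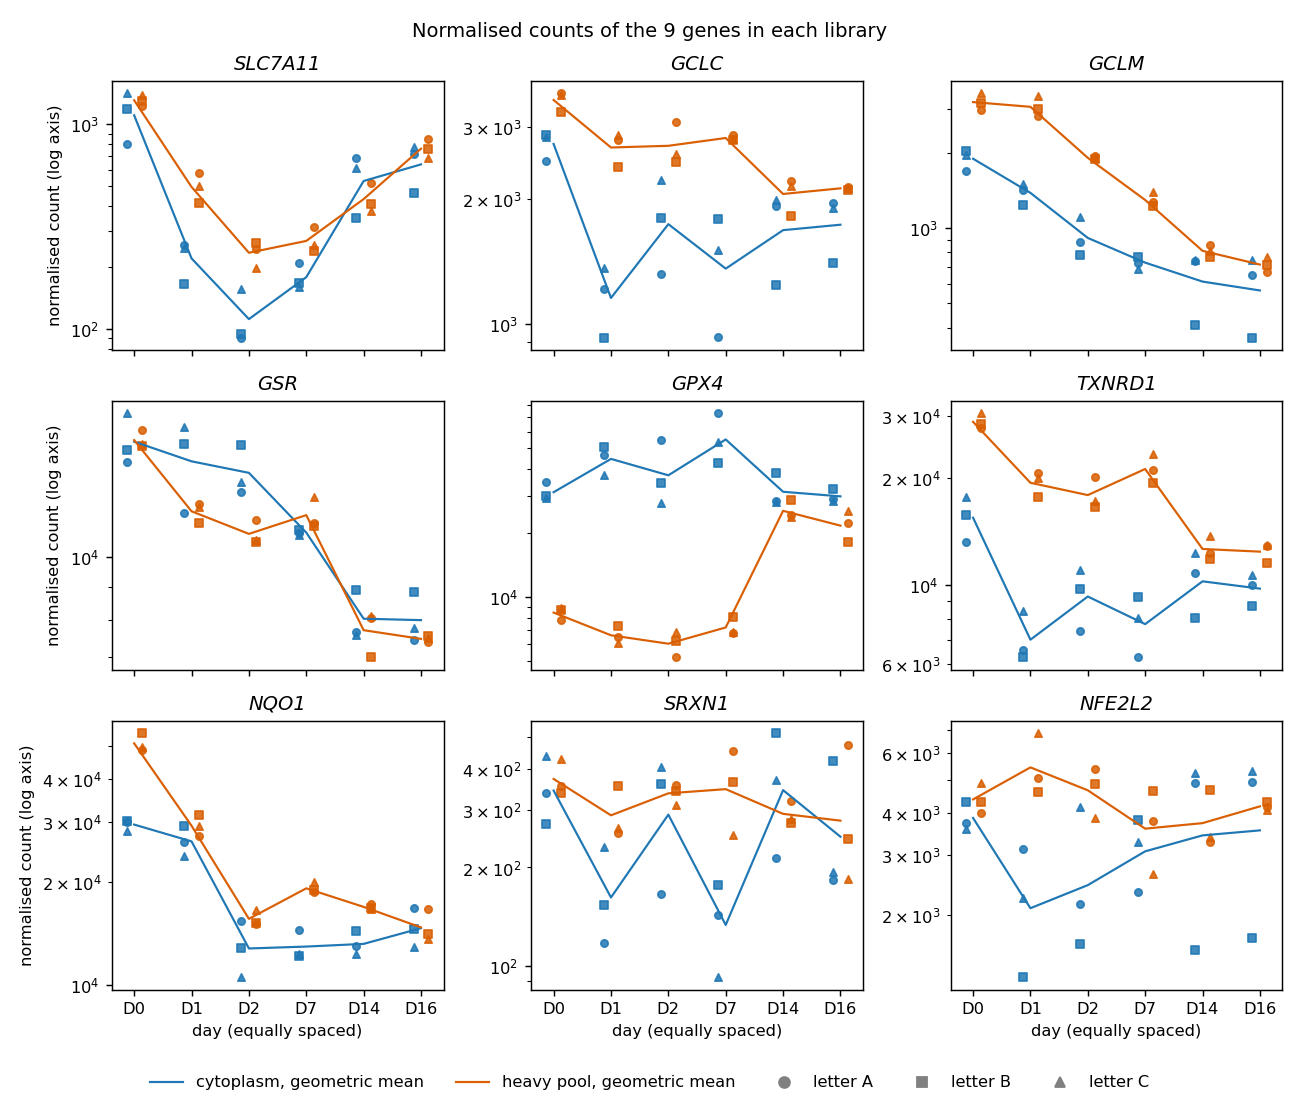
Normalised count (log axis, a separate scale in each panel) of the 9 genes in every library by day, with cytoplasm in blue and heavy pool in orange, a marker for each letter and a line through the geometric means. The GPX4 lines lie far apart from D0 to D7 and approach each other at D14 and D16, where its heavy pool libraries hold 18070 to 28463.

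GSR (chromosome 8, 30678061 to 30727999, minus strand) encodes glutathione reductase, which uses NADPH to return oxidised glutathione to its reduced form. Its largest differences from D0 came at D14 and D16 in both fractions. Cytoplasmic libraries had 13995, 14640 and 16664 at D0 and 12610, 14880 and 13051 at D2, which overlapped, and 7670, 8896 and 7582 at D14. Heavy pool libraries had 15694, 14816 and 14924 at D0, 11413, 10533 and 10630 at D2 and 8059, 6996 and 8120 at D14. The D14 differences were -0.91 ± 0.16, adjusted p = 0.00102 in the cytoplasm and -0.97 ± 0.08, adjusted p = 2.99e-10 in the heavy pool. At D16 they were -0.91 ± 0.16, adjusted p = 0.000794 and -1.02 ± 0.08, adjusted p = 1.16e-10. Leaving out letter C ended the cytoplasmic calls at D14 (adjusted p = 0.147) and D16 (adjusted p = 0.0949). The heavy pool calls at D1 (-0.36 ± 0.08), D2 (-0.48 ± 0.08) and D7 (-0.38 ± 0.08) were lost under total scaling, with values of -0.17, -0.10 and -0.09. The cytoplasmic D7 call (-0.47 ± 0.16, adjusted p = 0.03) was missed without D7 letter A (adjusted p = 0.0648).

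TXNRD1 (chromosome 12, 104215779 to 104350305, plus strand) encodes the cytosolic thioredoxin reductase, a selenoprotein that keeps thioredoxin reduced. It was lower in every later library than in any D0 library of the same fraction. Cytoplasmic values were 13218, 15769 and 17742 at D0, 6544, 6246 and 8423 at D1 and 7436, 9763 and 10987 at D2. They were 6264, 9223 and 8069 at D7, 10810, 8084 and 12266 at D14 and 10012, 8738 and 10632 at D16. The lowest group mean in the cytoplasm was that of D1, whereas the heavy pool was lowest at the end. Heavy pool values of TXNRD1 were 27582, 28421 and 30465 at D0, 20675, 17671 and 19966 at D1 and 20153, 16553 and 17204 at D2. They were 21037, 19424 and 23343 at D7, 12324, 11862 and 13760 at D14 and 12853, 11502 and 12919 at D16. The cytoplasmic difference was -1.14 ± 0.21, adjusted p = 0.00126 at D1 and -1.0 ± 0.21, adjusted p = 0.00208 at D7. In the heavy pool it was -0.57 ± 0.10, adjusted p = 4.78e-05 at D1, -1.19 ± 0.10, adjusted p = 3.01e-10 at D14 and -1.21 ± 0.10, adjusted p = 1.73e-10 at D16. The step from D7 to D14 in the heavy pool was -0.75 ± 0.10, adjusted p = 9.05e-07. Without letter C throughout the cytoplasmic D7 call was missed (-0.93, adjusted p = 0.063). Late cytoplasmic values lay near the threshold. At D14 the difference was -0.60 ± 0.21, adjusted p = 0.0712, and it passed with the letter as a block (adjusted p = 0.0249). At D16 it was -0.66 ± 0.21, adjusted p = 0.038, and it was missed without letter B of that group (-0.58, adjusted p = 0.118). Total scaling ended the calls of D2 and D16 in the cytoplasm (adjusted p = 0.0723 and 0.351), calls also lost without any 1 of the letters (adjusted p from 0.0587 to 0.238), and of D7 in the heavy pool (adjusted p = 0.172).

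SRXN1 (chromosome 20, 646615 to 653370, minus strand) encodes sulfiredoxin, which repairs over-oxidised peroxiredoxins. It had few reads, down to 69 in a library, and scattered widely. In the cytoplasm SRXN1 had 338, 271 and 439 at D0, 118, 153 and 230 at D1 and 143, 176 and 92.2 at D7, with no overlap of D0 and either later day. At D14 the libraries had 213, 515 and 369, on both sides of D0. The D7 difference of -1.37 ± 0.42, adjusted p = 0.0207 passed, and that of D1 (-1.09 ± 0.42, adjusted p = 0.0835) passed with the letter as a block (adjusted p = 0.0371). Without letter C the D7 call was lost (adjusted p = 0.264). The rise from D7 to D14 (1.37 ± 0.42, adjusted p = 0.0201) was missed without D14 letter B, the highest library (1.08, adjusted p = 0.0805). The step from D2 to D7 was -1.12 ± 0.42, adjusted p = 0.0671 and passed with the block (adjusted p = 0.0277), the single call among the 9 genes in that step. In the heavy pool SRXN1 ranged from 184 to 472 over all 18 libraries and was not called on any day. Without letter A, the highest at D16, the heavy pool difference of D16 went from -0.42 ± 0.24, adjusted p = 0.116 to -0.84 and passed (adjusted p = 0.00358). Its exons overlap those of a read-through transcript on the same strand that was not listed, so reads of the pair cannot be told apart.

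NQO1 (chromosome 16, 69706996 to 69726951, minus strand) encodes the quinone reductase most often used as a readout of NRF2. Its mRNA fell within the 48 h of exposure and stayed low to D16. Heavy pool values of NQO1 were 48446, 54416 and 49619 at D0, 27193, 31427 and 29042 at D1 and 15046, 15199 and 16585 at D2. They were 18636, 18908 and 19920 at D7, 17209, 16806 and 16687 at D14 and 16700, 14037 and 13612 at D16. All D1 libraries lay between those of D0 and those of every later day. In the cytoplasm NQO1 had 29987, 30085 and 28160 at D0 and 26124, 29039 and 23855 at D1, which overlapped. It then had 15422, 12856 and 10521 at D2, 14504, 12128 and 12321 at D7, 12960, 14358 and 12297 at D14 and 16765, 14532 and 12896 at D16, all below D0. The heavy pool difference was -0.80 ± 0.09, adjusted p = 1.55e-07 at D1, -1.70 ± 0.09, adjusted p = 1.41e-13 at D2 and -1.79 ± 0.09, adjusted p = 7.53e-14 at D16. In the cytoplasm it was -0.16 ± 0.17, adjusted p = 0.52 at D1, -1.20 ± 0.17, adjusted p = 5.03e-05 at D2 and -1.16 ± 0.17, adjusted p = 0.000224 at D14. The D16 cytoplasmic call (-1.01 ± 0.17, adjusted p = 0.000655) was missed without letter C (adjusted p = 0.0596). Exons of NQO1, SLC7A11, GCLC and NFE2L2 overlap genes on the opposite strand, and the strand setting of the counting is not given in the sources used here. Reads in the shared stretches may therefore affect their counts. GCLC and NFE2L2 also share exon sequence with a gene on the same strand, AL033397.1 and AC019080.1, of which the latter is among the genes listed.

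NFE2L2 (chromosome 2, 177227595 to 177392697, minus strand) had no called change in either fraction with all libraries fitted and the size factors as deposited. Its heavy pool libraries had 3981, 4315 and 4885 at D0, 5079, 4619 and 6879 at D1, 5396, 4868 and 3849 at D2, 3793, 4622 and 2635 at D7, 3271, 4657 and 3394 at D14 and 4166, 4292 and 4074 at D16. Heavy pool libraries of D0 overlapped those of every later day. Cytoplasmic values spread more, with 3726, 4313 and 3576 at D0, 3121, 1305 and 2235 at D1 and 2144, 1637 and 4153 at D2. They were 2332, 3803 and 3278 at D7, 4883, 1572 and 5244 at D14 and 4938, 1701 and 5311 at D16. Letter B was far below A and C at both D14 and D16, in the libraries whose deviations followed GC content. The GC content of NFE2L2 was 45.6%, against a median of 48.8% over all genes, and its part in these low values was not tested. Without the letter B library of the day, the cytoplasmic difference from D0 went from -0.17 ± 0.48 to 0.39 at D14 (adjusted p = 0.654) and from -0.12 ± 0.48 to 0.41 at D16 (adjusted p = 0.639), still uncalled. With letter B left out of every group, the cytoplasmic step from D7 to D14 went from 0.16 ± 0.48 to 0.87 and passed (adjusted p = 0.044), and NFE2L2 was called lower in the heavy pool at D7 (-0.48, adjusted p = 0.0318) and from D2 to D7 (-0.53, adjusted p = 0.0235). SLC7A11, GCLM, GCLC and TXNRD1 were also lowest in letter B in cytoplasmic D14 and D16, while GPX4, GSR and SRXN1 were highest there. NQO1, with a GC content of 46.0%, was highest in letter B at D14 and between A and C at D16. The NFE2L2 difference was -0.89 ± 0.48, adjusted p = 0.205 in the cytoplasm at D1, and 0.31 ± 0.17, adjusted p = 0.142 and -0.23 ± 0.17, adjusted p = 0.232 in the heavy pool at D1 and D14. Under total scaling the heavy pool values at D1 (0.51, adjusted p = 0.036) and D2 (0.47, adjusted p = 0.0363) passed as higher, and the step from D2 to D7 passed as lower (-0.47, adjusted p = 0.0455).

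GPX4 (chromosome 19, 1103926 to 1106791, plus strand) encodes the selenoprotein that reduces phospholipid hydroperoxides with glutathione and so holds off ferroptosis. It was the one gene of the set called above D0 in the heavy pool, and its rise there came between D7 and D14. Heavy pool values of GPX4 were 7767, 8717 and 8908 at D0, 6508, 7305 and 6064 at D1 and 5195, 6195 and 6811 at D2. They were 6750, 8038 and 6852 at D7, 24198, 28463 and 23931 at D14 and 22269, 18070 and 25297 at D16. The 6 libraries of D14 and D16 were all above the 12 of the earlier days. Cytoplasmic values of GPX4 were 34672, 29905 and 29134 at D0, 46448, 51011 and 37613 at D1 and 55068, 34258 and 27730 at D2. On D7 they were 73337, 42652 and 53626, and they were 28348, 38424 and 28108 at D14 and 28791, 32256 and 28399 at D16. Cytoplasmic libraries of D1 and D7 were above all of D0, and those of D2, D14 and D16 overlapped it. In the heavy pool the difference from D0 was -0.35 ± 0.12, adjusted p = 0.0188 at D1, -0.49 ± 0.12, adjusted p = 0.00119 at D2 and -0.23 ± 0.12, adjusted p = 0.0965 at D7. It was 1.59 ± 0.12, adjusted p = 1.02e-10 at D14 and 1.36 ± 0.12, adjusted p = 1e-09 at D16, and the step from D7 to D14 was 1.82 ± 0.12, adjusted p = 9.34e-11. The cytoplasm gave 0.01 ± 0.24, adjusted p = 0.992 at D14 and 0.82 ± 0.24, adjusted p = 0.016 at D7. Without D7 letter A, its highest library, the D7 value was 0.62 with adjusted p = 0.0826, and without letter C throughout adjusted p was 0.138. The lower heavy pool calls of D1 and D2 were lost under total scaling (adjusted p = 0.263 and 0.414), and that of D1 also without letter A (adjusted p = 0.0595) or C (adjusted p = 0.119). The D14 and D16 heavy pool calls held under all alternatives run.

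Whether the heavy pool moved differently from the cytoplasm was tested as the difference between the changes from D0 of the fractions. At D1 1 of the 9 genes was lower (3.37% of all genes, 4.16% in either direction) and at D2 none was called (2.06%). At D7 1 was lower (3.2%, 3.95% in either direction) and at D14 1 was higher (11.5%, 28.3% in either direction). At D16 1 was higher and 1 lower, beside 11.6% of all genes higher and 17.9% lower, 29.5% together. At D2 limma's unadjusted p was under 0.05 for 3 of the 9 genes and 2516 of all genes. GPX4 shifted toward the heavy pool by 1.58 ± 0.28, adjusted p = 0.000284 at D14 and by 1.42 ± 0.28, adjusted p = 0.000435 at D16, calls held by all alternatives run. At D7 GPX4 had moved the other way (-1.06 ± 0.28, adjusted p = 0.0264). That call was missed without cytoplasmic D7 letter A (-0.85, adjusted p = 0.117) and under total scaling (adjusted p = 0.102). It was also missed with any letter left out of every group (adjusted p from 0.0769 to 0.326). Under total scaling 3 other genes were called toward the heavy pool at D7, GCLC (1.31, adjusted p = 0.047), SRXN1 (1.87, adjusted p = 0.0388) and TXNRD1 (1.17, adjusted p = 0.0339), where the median of all genes moved by 0.61. NQO1 shifted away from the heavy pool at D1 (-0.64 ± 0.18, adjusted p = 0.041) and at D16 (-0.78 ± 0.18, adjusted p = 0.00166). The D1 value was missed under total scaling (-0.19, adjusted p = 0.441), under TMM scaling (adjusted p = 0.0574) and with any letter left out (adjusted p from 0.0928 to 0.339). That of D16 was missed without letter B (adjusted p = 0.0695). TXNRD1 gave -0.59 ± 0.23, adjusted p = 0.0514 at D14 and -0.55 ± 0.23, adjusted p = 0.0691 at D16, and both passed with the letter as a block (adjusted p = 0.0268 and 0.0379). The D14 value of TXNRD1 also passed without cytoplasmic D14 letter B (-0.76, adjusted p = 0.0165), and the uncalled D16 value of GCLM (-0.41 ± 0.28, adjusted p = 0.285) passed without cytoplasmic D16 letter B (-0.72, adjusted p = 0.0338). Without the deep cytoplasmic library D2 letter C, GPX4 (-0.97, adjusted p = 0.0293) and NQO1 (-0.64, adjusted p = 0.0248) were called at D2.

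The contrast between the fractions also narrowed over all genes at the end of the series. GPX4 had a heavy pool minus cytoplasm level of -1.88 at D0 on the log2 scale, of -2.76, -2.63 and -2.94 at D1, D2 and D7, then -0.30 at D14 and -0.46 at D16. The standard deviation of this quantity over all genes was 0.76 at D0, 1.01 at D1, 0.85 at D2 and 1.09 at D7, and 0.42 at D14 and 0.36 at D16. Genes lying lower than GPX4 made up 1.39% of all genes at D0, 15.4% at D14 and 7.44% at D16. Ribosomal protein genes took 5.13 to 6.95% of heavy pool reads from D0 to D7 and 10.1 to 12.2% at D14 and D16. The part of this narrowing in the GPX4 result was not tested.

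**Figure D3:**
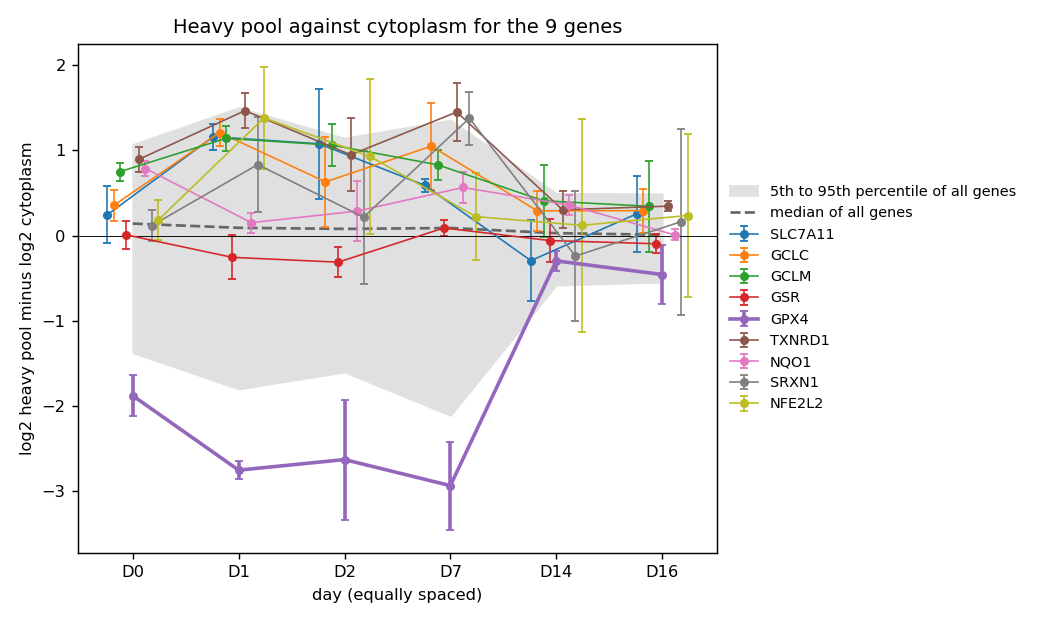
Log2 heavy pool minus log2 cytoplasm for the 9 genes by day (mean and SD over 3 letters), with the 5th to 95th percentile range of all genes in grey and their median dashed. GPX4 is at -2.94 on D7 and -0.30 on D14, and the grey range narrows between the same days.

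Among the 36 pairs of the 9 genes, 26 had a positive Pearson r over the 12 group means of log2 values, a description in which points share libraries and fractions. GCLC and TXNRD1 ran most closely together, at 0.974 over the 12 means, 0.986 over the 6 cytoplasmic and 0.992 over the 6 heavy pool means. GPX4 was negative with all 8 others over the 12 means, from -0.884 with TXNRD1 to -0.136 with GSR, values that also hold the gap between the fractions. Over the 6 cytoplasmic means GPX4 was positive with GSR (0.324) and GCLM (0.0581), and over the 6 heavy pool means with SLC7A11 (0.303). Its other pairs were negative within each fraction. The genes most alike in pattern to each were taken from the whole table as the 3 with the highest r. For SLC7A11 they were USP28 (0.975), KIF15 and ERMARD, for GCLC they were TXNRD1, YY1 and TRIM37, and for GCLM they were ME1 (0.972), TAF5 and CDK2. ME1 is malic enzyme, a source of NADPH. GSR was nearest to CARS2 (0.949), CYC1 and TACO1, TXNRD1 to TRIM37 (0.982), CNKSR3 and PPP1R8, and NQO1 to SFXN2 (0.985), CPSF6 and AAAS. GPX4 was nearest to SMDT1 (0.996), LY6E (0.995) and the ribosomal protein pseudogene RPL12P17 (0.994), whose reads may belong to its parent gene. SRXN1 was nearest to KDM2B (0.938), VANGL1 and SLC35E2A, and NFE2L2 to USP47 (0.957), ZNF180 and INTS6.

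Lists of related redox genes, each without the 9 genes above, gave the surroundings of these changes, beside heavy pool calls of 34.5% of all genes lower and 30.4% higher at D2, and 37.6% lower and 34.4% higher at D14. The other NRF2 targets had more genes lower than higher in the heavy pool, but not early in the cytoplasm. There 8 of 33 were higher and 3 lower at D1, beside 10.9% of all genes higher and 7.09% lower. Of 33 listed, 17 were lower and 7 higher in the heavy pool at D2, and 20 lower and 5 higher at D14, with a median of -0.55. PIR, an iron-binding nuclear protein, was -2.71 ± 0.11 (adjusted p = 2.84e-15) at D2, PGD, of the pentose phosphate pathway, was -1.88 ± 0.12 (adjusted p = 9.28e-12), and ABHD4 was higher by 1.49 ± 0.10 (adjusted p = 7.12e-12). Of 18 genes of NADPH supply 13 were lower, 2 higher and 3 not called at D2, and 13 were lower, none higher and 5 not called at D14, with medians of -0.84 and -0.83. Transketolase (TKT) was -1.68 ± 0.12 (adjusted p = 3.81e-11) at D14.

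The ATF4 targets and cystine supply genes had 16 of 23 lower and 4 higher at D2, led by PHGDH, the first enzyme of serine synthesis, at -3.43 ± 0.16 (adjusted p = 2.34e-14). CTH, which makes cysteine from cystathionine, was -2.26 ± 0.16 (adjusted p = 2.66e-11). ATF4 itself, among the 20 NRF2 regulators and partners, was -2.23 ± 0.09 (adjusted p = 2.03e-15) and KEAP1 was -0.83 ± 0.08 (adjusted p = 7.05e-09), while MAFF rose by 1.25 ± 0.13 (adjusted p = 2.11e-08). Of these regulators 7 were higher and 7 lower at D2, 35% each and near the shares of all genes, and at D14 13 were lower and 4 higher. The p53 targets of redox control went the other way at D2, with 11 of 14 higher and 1 lower and a median of 2.12. CDKN1A, the p53-induced cell cycle inhibitor, rose by 4.70 ± 0.09 (adjusted p = 2.13e-20) and SESN1, which p53 also induces, by 2.47 ± 0.12 (adjusted p = 5.51e-14). By D14 that list had 6 higher and 5 lower. In the cytoplasm at D2 14.2% of all genes were higher and 10.6% lower, 24.8% together. There 11 of these 14 were higher and none lower, 9 of 18 NADPH supply genes were lower and 2 higher, and 5 of 33 other NRF2 targets were lower and 8 higher.

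Of 32 genes of glutathione metabolism 15 were lower (46.9%) and 9 higher (28.1%) in the heavy pool at D2, beside 34.5% and 30.4% of all genes. At D14 15 were lower (46.9%) and 14 higher (43.8%), beside 37.6% and 34.4% of all genes. Glutathione synthetase (GSS), which completes the tripeptide, was -1.70 ± 0.10 (adjusted p = 2.84e-12) at D14, and glutaredoxin (GLRX) was higher by 1.29 ± 0.12 (adjusted p = 3.68e-09). The 21 thioredoxin and peroxiredoxin genes had 11 lower and 7 higher at D14, with TXN up by 1.11 ± 0.10 (adjusted p = 7.54e-10) and TXNRD2 at -1.59 ± 0.11 (adjusted p = 4.95e-11). The 25 ferroptosis genes had 14 lower and 7 higher at D14, with SAT1, which breaks down polyamines, up by 2.45 ± 0.12 (adjusted p = 1.41e-13). GPX4 belongs with the selenoproteins, and of 24 other genes of selenoproteins and their synthesis 10 were higher and 9 lower at D14. SELENOP was up by 2.79 ± 0.18 (adjusted p = 1.16e-11) and SELENOM by 1.73 ± 0.13 (adjusted p = 8.37e-11). In the test between fractions at D14, 7 of those 24 shifted toward the heavy pool and 3 away. Of all genes 11.5% shifted toward it, and 28.3% were called in either direction. SELENOM shifted by 1.37 ± 0.34 (adjusted p = 0.00404), TXN by 1.59 ± 0.37 (adjusted p = 0.00261) and GPX1, of the p53 list, by 1.02 ± 0.29 (adjusted p = 0.00942).

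**Figure D4:**
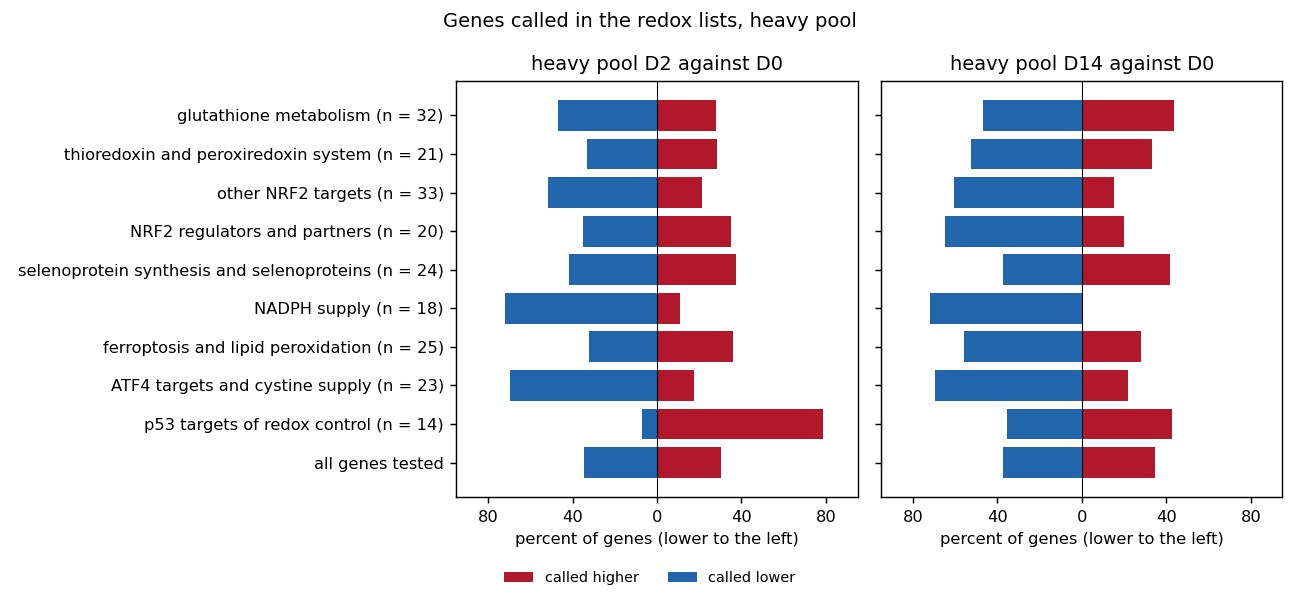
Percent of tested genes called higher (red, to the right) and lower (blue, to the left) in each redox list and over all genes, in the heavy pool at D2 (left) and D14 (right) against D0. NADPH supply has 13 of 18 genes lower on both days, and the p53 list has 11 of 14 higher at D2 and 6 of 14 at D14.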

How the data were processed

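Poly(A)-selected RNA-seq of 18 cytoplasmic and 18 heavy pool libraries was analysed. Tools named in the submitters' processing notes were STAR 2.7.9a, cutadapt 3.2, FastQC 0.11.9, Subread 2.0.1 with featureCounts, and DESeq2 1.30.1. The build they name is GRCh38. The values the authors deposited are a signal (counts of reads over a library's size factor), and 100% of them came out as whole multiples of a library step within 0.01, which gave the depths quoted. Of 54 columns 18 belong to no sample here and were not used. Gene names came from the annotation (GENCODE 29). Differences were fitted with limma 3.58.1 (R 4.3.3, trend, two-sided) on log2(value + 1), for genes of at least 10 in at least 3 libraries, within each fraction (18 libraries) or over all 36 for tests between fractions, with Benjamini-Hochberg adjustment over all genes tested and a threshold of 0.05. Steps between later days used the same fits. Each fit used the same spread per gene for all its groups. Over all 36 libraries this pooled the fractions, though cytoplasmic libraries were the less even. Standard errors of tests between fractions are therefore not specific to the groups compared. The code was tested on simulated data. The labels give the letter as batch, so letters pair libraries. Same-letter deviations correlated at a mean r of 0.191 over 45 cytoplasmic pairs (27 over 0.1) and 0.0675 over 45 heavy pool pairs (20 over 0.1), and at -0.000899 over 18 same-day pairs across fractions (5 over 0.1). Alternatives were pseudocounts of 0.5 and 5, no filter, total and TMM scaling, the letter block, and leaving out letters or single libraries. All 9 genes were named by rule, with up to 3 called genes of largest difference per list and comparison. The genes and lists were chosen with earlier results of these data known.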

Additional observations from a re-analysis of the deposited data

Results flagged for a closer look

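The change from D0 differed between the heavy pool and the cytoplasm, by limma's test of that difference, for 2 of the 9 genes. For GPX4 the difference was -1.06 at D7, 1.58 at D14 and 1.42 at D16. For NQO1 it was -0.64 at D1 and -0.78 at D16. All 5 values are on the log2 scale, heavy pool minus cytoplasm. Only the GPX4 calls of D14 and D16 held under all alternatives run. Those of GPX4 at D7 and NQO1 at D1 were missed with any letter left out, and that of NQO1 at D16 without letter B.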

How the results depend on the processing

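The direction and side of the threshold held in 1806 of the values recomputed for the 9 genes, 72 lost and 28 gained a call, and 2 reversed, where a sign change between uncalled values was not counted as a reversal. The pseudocounts and the filter moved no call. Both reversals came under total scaling, GCLC in the heavy pool at D2 (0.012, adjusted p = 0.928) and GSR in the cytoplasmic step from D7 to D14 (0.031, adjusted p = 0.918). edgeR and DESeq2 were not run. The lowest value is above 1 step in 24 of the 36 columns used, so read numbers, depths and TMM scaling rest on steps estimated from the spacing of values, not on deposited counts.

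In the heavy pool at D1 and D2 total scaling ended the lower calls of GCLC, GSR and GPX4 and gave NFE2L2 a higher one. The number of the 9 genes called fell from 6 to 3 in the heavy pool at D7 under total scaling. Between fractions it went at D1 from 1 to 0 under total or TMM scaling, at D7 from 1 (GPX4) to 3 others (GCLC, SRXN1 and TXNRD1) under total scaling and to 0 without cytoplasmic D7 letter A, and at D14 from 1 to 2 with the replicate block or without cytoplasmic D14 letter B. At D2 it went from 0 to 2 without cytoplasmic D2 letter C. The block gave 1 in place of 0 in the cytoplasmic step from D2 to D7, and changed no other call beside those given with the results. Cytoplasmic D7 had 5 in place of 8, and the step from D7 to D14 had 2 in place of 4, without D7 letter A.

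Leaving out 1 letter or library at a time, the number of the 9 genes called ran from 2 to 5 in the cytoplasm at D2, 3 to 7 in the cytoplasm at D7, 2 to 4 in the cytoplasm at D14, 1 to 3 in the cytoplasm at D16, 0 in each case between fractions at D1, 0 to 2 between fractions at D2, 0 in each case between fractions at D7, 1 to 2 between fractions at D14, 0 to 1 in the cytoplasmic step from D2 to D7, 0 to 3 in the cytoplasmic step from D7 to D14 and 1 to 2 in the heavy pool step from D14 to D16.

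All genes called between fractions at D1 were 661, and 44 under total scaling, 434 under TMM and 1108 with the block. At D2 they were 328, and 132 under total scaling. At D7 they were 627, and 1589 under total scaling and 964 with the block. The cytoplasmic step from D2 to D7 had 3377, and 5120 with the block. Leaving out 1 letter or library at a time, all genes called ran from 531 to 1822 in the cytoplasm at D1, 1794 to 4046 in the cytoplasm at D2, 1322 to 4616 in the cytoplasm at D7, 253 to 1743 in the cytoplasm at D14, 438 to 2003 in the cytoplasm at D16, 0 to 85 between fractions at D1, 4 to 1227 between fractions at D2, 25 to 248 between fractions at D7, 1297 to 3675 between fractions at D14, 1768 to 4056 between fractions at D16, 287 to 2582 in the cytoplasmic step from D2 to D7, 1191 to 5223 in the cytoplasmic step from D7 to D14 and 538 to 2956 in the heavy pool step from D14 to D16.

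Total scaling moved the median of all genes by -0.32 to 0.61 on the log2 scale and the share of calls that were higher by over 10 points, from 60.5% to 46.1% in the cytoplasm at D1, from 60.5% to 77.5% in the cytoplasm at D14, from 56.6% to 72.8% in the cytoplasm at D16, from 53.9% to 36.2% in the cytoplasm at D7, from 46.4% to 76.2% in the cytoplasmic step from D7 to D14, from 42.7% to 67.9% in the heavy pool at D1, from 47.8% to 65% in the heavy pool at D14, from 49.7% to 70.7% in the heavy pool at D16, from 46.8% to 71.7% in the heavy pool at D2, from 42.5% to 64.5% in the heavy pool at D7, from 46% to 71.2% in the heavy pool step from D14 to D16, from 18.9% to 50% between fractions at D1, from 40.8% to 78.6% between fractions at D14, from 39.2% to 74.7% between fractions at D16, from 1.83% to 77.3% between fractions at D2 and from 19% to 88.3% between fractions at D7. SLC7A11 and SRXN1 had as few as 59 and 69 reads in a library, a counting error of 13% and 12%.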
